A study of Homo sapiens with 4 samples.

Results

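The mitochondrial protein import machinery was examined as 35 genes listed by name, with no threshold on their values, among the 61541 Ensembl genes of a count table from MHCC97H cells. MHCC97H is an established human hepatocellular carcinoma line. The table held 4 RNA-seq libraries, 2 from cells carrying a control hairpin (shCon, genotype control in the labels) and 2 from cells in which UBXN1, a UBX domain protein that binds ubiquitin and the p97 ATPase, was knocked down with a short hairpin RNA (shUBXN1). Which of the study's UBXN1 hairpins the sequenced cells carried is not given in the sources used here, and the labels do not say whether the libraries of a group came from separate cultures, so the p-values measure the spread between these libraries, which may be technical. The comparison asked which parts of the import machinery differed at the RNA level between shUBXN1 and shCon cells.

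Nearly all mitochondrial proteins are made in the cytosol and enter through the translocase of the outer membrane (TOM), in which TOMM40 forms the pore, TOMM20, TOMM22 and TOMM70 act as receptors and TOMM5, TOMM6 and TOMM7 are small subunits. Proteins with a cleavable presequence pass through the TIM23 complex and its motor into the matrix, where the peptidases PMPCA/PMPCB and MIPEP trim them. Small TIM chaperones carry hydrophobic proteins across the space between the membranes to the TIM22 complex, which inserts carriers, or to the SAM complex, which inserts barrel proteins. The MIA pathway of CHCHD4 and GFER traps small cysteine-rich proteins by oxidation.

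Total expected counts per library ranged from 23373700 to 27380508, and every member had between 138 and 6636 counts in each library, so all 35 passed the filter on low counts. Replicate libraries correlated at r of 0.996 (shCon) and 0.995 (shUBXN1) across genes, and libraries of different groups at 0.961 to 0.965, genes not being independent replicates. Counts from the mitochondrial genome made up 5.28% and 5.59% of the shCon libraries and 7.43% and 8.27% of the shUBXN1 libraries. This share moved with the groups, and its part in the results was not tested. UBXN1 itself had 1788 and 1817 counts in shCon and 416 and 433 in shUBXN1, a log2 fold change of -2.03 (SE 0.0963; edgeR). Of 10 hepatocyte markers, 9 could be tested, with 5 lower (ALB, TTR, APOB, TF and KRT8) and 2 higher (SERPINA1 and KRT18) in shUBXN1, and GPC3 had no count in any library. ALB went from 479 and 403 counts to 104 and 112. Of the markers of other cell types, the only one for blood cells that could be tested was lower (CD68). ENSG00000264772, on the same strand, shares 81.6% of the exon bases of CD68. For endothelium 1 of 3 was higher (PECAM1), and of 5 for fibroblasts 2 were lower (DCN and LUM) and 1 higher (COL1A1). CD68 had 1650 to 2198 counts per library, PECAM1 779 to 1065, and LUM 844 and 758 in shCon and 345 and 390 in shUBXN1, and COL1A1 had at most 59. The markers PTPRC, CD3E, HBB, CDH5, COL3A1, VWF, DCN and RGS5 had at most 4, 0, 11, 6, 15, 34, 17 and 20 counts. The part of these marker changes in the results was not tested.

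Transcripts lower in shUBXN1 cells included those of the pore TOMM40, the receptors TOMM22 and TOMM70, most small TIM chaperones, the channel TIMM23 with TIMM50 and TIMM21, and both subunits of the processing peptidase. The receptor TOMM20, the channel subunits TIMM17A and TIMM17B and the motor tether TIMM44 did not pass the test. At an adjusted p under 0.05 in edgeR's quasi-likelihood test, 19 of the 35 members were lower and 1 was higher, against a background of 28.2% of all 16863 tested genes called lower, 28.0% called higher and 56.2% called in either direction. Among 10005 protein-coding genes in the members' range of expression, 36.8% were called lower, 29.0% higher and 65.8% in either direction, compared with 54.3% of the members called lower. The median log2 fold change was -0.39 over the members, 0.016 over all genes tested and -0.06 over the protein-coding genes in that range. Calls were therefore common throughout the transcriptome, and the list was described by its counts only, with no test of the list. RNA from a whole culture cannot separate fewer cells expressing a gene from less RNA per cell.

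With the fold change threshold of 2 and unadjusted p under 0.05 that the study used, 3 members were lower (TOMM5, TIMM21 and TIMM13) and 0 higher, against 6.09% and 11.8% of all genes tested and 4.79% and 5.52% of the protein-coding genes in the members' range. A further 8 members called lower at the adjusted p had log2 fold changes between -1 and -0.5, and the other 8 lay from -0.5 up. The CPM of the groups did not overlap for 26 members, 23 lower and 3 higher, where 38.6% of all tested genes were lower without overlap and 39.4% were higher. The 15 members that were not called had log2 fold changes from -0.15 to 0.16.

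**Figure D1:**
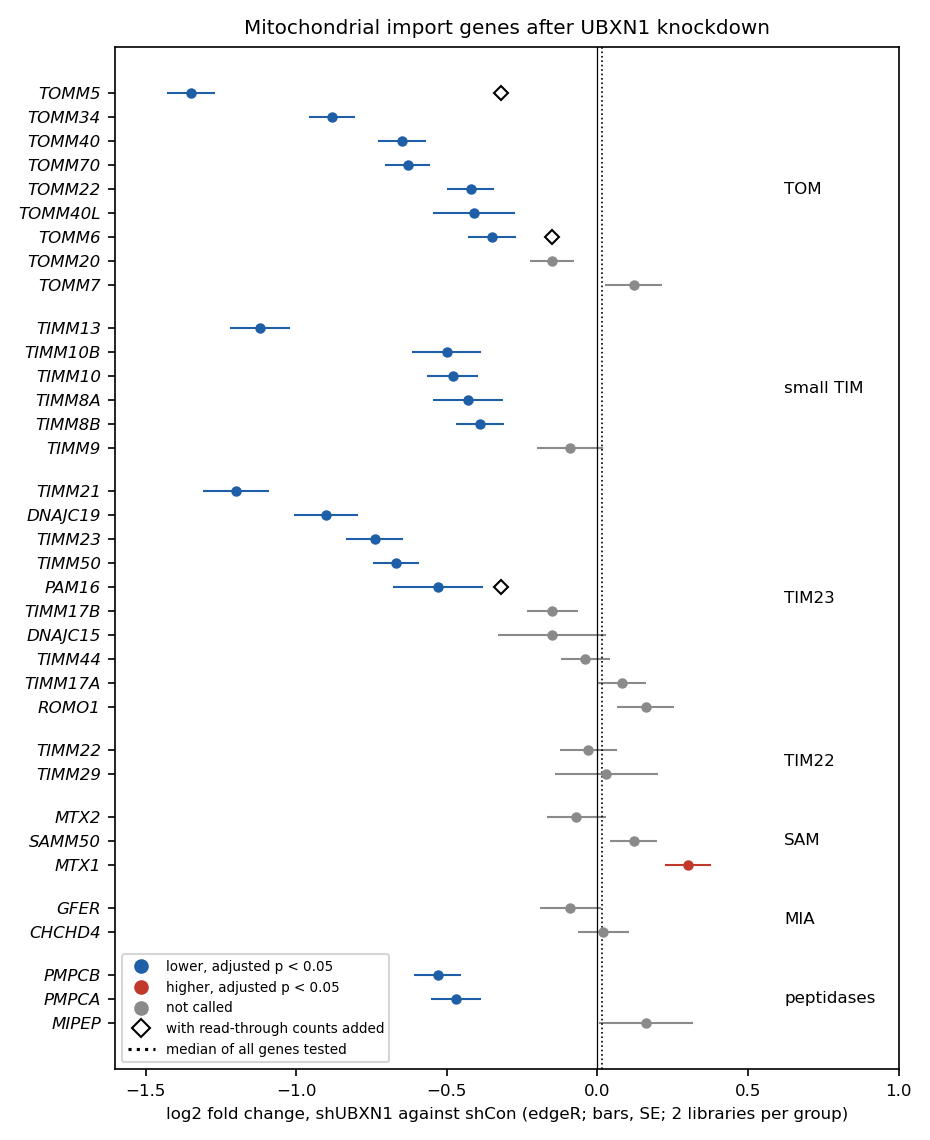
Log2 fold change of each of the 35 import genes, shUBXN1 against shCon, on the x axis, with bars for the SE from edgeR and 2 libraries per group; genes are arranged by complex, and colour gives the call. The genes called lower (blue) lie from -1.35 to -0.35 in the TOM, small TIM, TIM23 and peptidase groups, MTX1 at 0.30 is the only gene called higher, and open diamonds show where TOMM5, TOMM6 and PAM16 move when read-through counts are added.

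By complex, 7 of 9 TOM genes, 5 of 6 small TIM genes, 5 of 10 TIM23 genes and 2 of 3 peptidases were called lower, while none of the 2 TIM22, 3 SAM and 2 MIA genes was, against 28.2% of all genes tested and 36.8% of the protein-coding genes in the members' range. These counts cover only the listed members and were not tested against that background. AGK, a subunit of TIM22 outside the list, was called lower (log2 fold change -0.40, adjusted p = 0.00113, edgeR). The group medians were -0.42 for TOM, -0.45 for the small TIM chaperones, -0.34 for TIM23, -0.47 for the peptidases, 0.00 for TIM22, 0.12 for SAM and -0.03 for MIA. Leaving out the cytosolic cochaperone TOMM34, 6 of 8 TOM genes were lower with a median of -0.41. No test of a difference between complexes was made. When a trend on GC content was removed from each library, the SAM median turned to -0.05, the TIM23 median went from -0.34 to -0.57, and TIMM17B (-0.38), TIMM44 (-0.26) and GFER (-0.40) were called lower as well. The TIM22 and MIA medians were then -0.19 and -0.22, and the MIA median was 0.05 under total count scaling. Removal of the trend also took out each library's mean deviation over genes, and the part of that baseline shift was not tested.

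Promoter sequences are shown here for genes of the list because import genes are known to carry binding motifs of ETS factors and NRF1, both regulators of nuclear genes for mitochondrial proteins. RefSeq windows on GRCh38.p14, from 250 bases before to 50 bases after the gene start and the first window listed for each symbol, were found for 33 of the 35 members. Gene starts in GENCODE v44 can differ from these. By its bounds the PMPCB and ROMO1 stretches below lie inside the gene, and the TIMM10 stretch crosses the gene start. The ETS motif CCGGAAG, read on both strands, occurred in 15 of the 33 windows (45.5%), in 10.7% of 27305 windows of all genes and in 18.3% of 11671 windows of tested genes. It occurred in 9 of 17 members called lower and in 6 of 16 that were not. The stretches below are on the strand of the gene, with the motif (or its reverse complement) in capitals, for the receptor TOMM70, the channel TIMM23, the chaperone TIMM10 and the peptidase subunit PMPCB, all called lower, and for ROMO1, which was not called.
TOMM70, chr3:100401177-100401203 (minus strand): ttcccttaacCCGGAAGtgatttccgc
TIMM23, chr10:45972431-45972457 (plus strand): gcgcttccagCTTCCGGggcgcacatt
TIMM10, chr11:57530793-57530819 (minus strand): gtatttaattCCGGAAGcgagtttgaa
PMPCB, chr7:103297408-103297434 (plus strand): ggtcgcgaccCCGGAAGcacatccttc
ROMO1, chr20:35699335-35699361 (plus strand): ccccaggctcCCGGAAGtgctgcccgg

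The core NRF1 motif with any base allowed at its sixth position, on both strands, occurred in 8 windows of members (24.2%) and in 6.28% of all windows and 11.3% of windows of tested genes. It lay in 3 of 17 members called lower and in 5 of 16 that were not. Its palindromic form, a special case of the first and given in capitals here, was present in CHCHD4 alone among the members, a gene that was not called, and in 1.36% of all windows.
CHCHD4, chr3:14125003-14125032 (minus strand): cagtgtttctGCGCATGCGCgcggcgagac
The E-box CACGTG was found in 4 windows (12.1%, against 7.43% of all and 9.91% of tested), the YY1 motif in 2 (PMPCA and TIMM50, both lower; 6.06%, against 1.28% of all and 2.62% of tested) and TGATGNAA, a motif of ATF4 with CEBP, in 2 (PMPCB and TIMM22; 6.06%, against 3.67% of all and 1.81% of tested), all on both strands. These matches describe letters in the windows and no binding was measured.

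Within the TOM complex, TOMM5 had 3738 and 3650 counts in shCon and 1406 and 1383 in shUBXN1. Its level was 148 ± 10.7 CPM in shCon and 57.9 ± 1.60 CPM in shUBXN1 (SD, n = 2), a log2 fold change of -1.35 (SE 0.0788, adjusted p = 6.26e-09, edgeR). The shUBXN1 libraries both lay below either shCon library. TOMM5 (ENSG00000175768, chromosome 9, 37582646 to 37592604, minus strand) shares 18.9% of its exon bases with read-through genes on the same strand, and reads assigned to ENSG00000255872, which joins it to the neighbouring locus, went the other way. That gene had 2119 and 1883 counts in shCon and 2972 and 2990 in shUBXN1. TOMM5 received 63.8% and 66.0% of the summed counts in shCon and 32.1% and 31.6% in shUBXN1.

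With the read-through counts added to the gene, the log2 fold change of TOMM5 was -0.32 (SE 0.0752, adjusted p = 0.00211, edgeR), about the size seen for TOMM6 alone. The sum took in all counts of ENSG00000255872, which spans 37588413 to 38068687, also those from exons outside TOMM5. How far the size of the TOMM5 fall depended on the division of reads between overlapping genes was not tested. With the added counts TOMM5 stayed lower at the adjusted p but not at a fold change of 2. TOMM6 lies entirely within the exons of the read-through gene ENSG00000124593, which had 316 and 244 counts in shCon and 518 and 377 in shUBXN1. On its own TOMM6 fell from 1884 and 1848 counts to 1450 and 1379 (log2 fold change -0.35, adjusted p = 0.00185, edgeR), and with those counts added its log2 fold change was -0.15 (adjusted p = 0.109). With read-through counts added to all 4 members that have them (TOMM5, TOMM6, PAM16 and TIMM10B), 18 members were lower at the adjusted p and 2 at a fold change of 2. Over all 16863 genes tested, 4750 were then lower at the adjusted p. The TOMM6 call was also lost without shCon replicate 2 (-0.28, adjusted p = 0.0791).

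**Figure D2:**
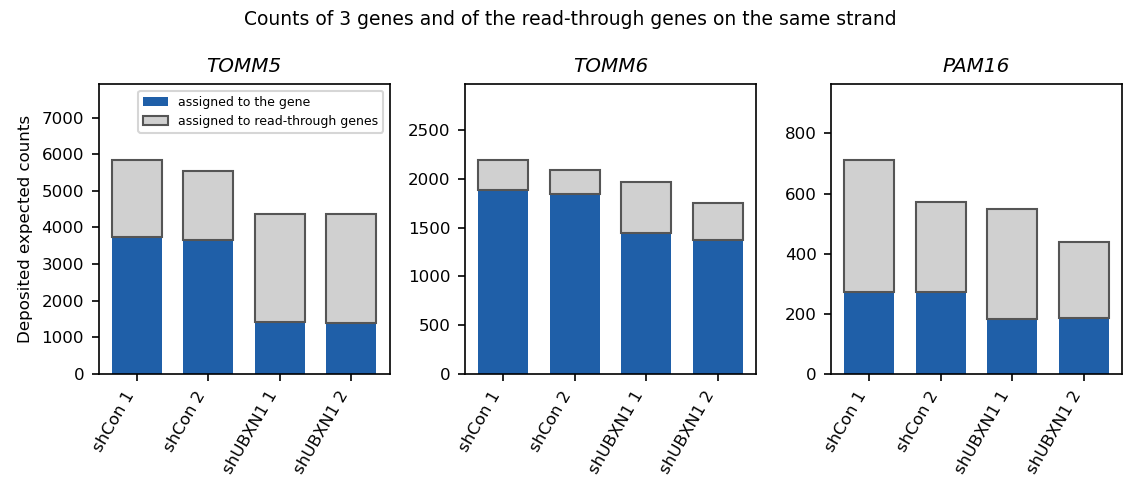
Deposited expected counts (y axis) of TOMM5, TOMM6 and PAM16 in each of the 4 libraries (x axis), with the counts assigned to the gene in blue and those assigned to read-through genes on the same strand stacked above in grey. For TOMM5 the summed bar falls from 5857 and 5533 to 4378 and 4372 counts while the blue part falls from 3738 and 3650 to 1406 and 1383.

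TOMM34, a cytosolic cochaperone that holds precursors before entry, had 2672 and 2315 counts in shCon and 1281 and 1324 in shUBXN1. Its CPM fell from 99.4 ± 1.19 to 54.2 ± 3.39 (SD, n = 2), a log2 fold change of -0.88 (SE 0.0766, adjusted p = 3.10e-07, edgeR), with no overlap between groups. TOMM40, the pore, fell from 5546 and 5266 counts to 3229 and 3408 (log2 fold change -0.65, SE 0.0799). After the trend on GC content was removed, the TOMM40 value was -0.99.

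Among the receptors, TOMM70, which binds carrier precursors and cytosolic chaperones, had 161 CPM in both shCon libraries and 99.6 and 108 in shUBXN1 (log2 fold change -0.63, SE 0.0745). TOMM22, the central receptor, went from 62.4 and 61.9 CPM to 44.7 and 48.4 (log2 fold change -0.42, SE 0.0779). TOMM20, the presequence receptor, had 249 and 261 CPM in shCon and 224 and 234 in shUBXN1, and its log2 fold change of -0.15 (SE 0.0736) did not pass the test (adjusted p = 0.0882, edgeR). It was called lower when the length trend was removed (-0.26, adjusted p = 0.0140) and without shUBXN1 replicate 2 (-0.20, adjusted p = 0.00777). None of the receptors overlapped between groups. TOMM7, a small subunit that takes part in stabilising PINK1 at the outer membrane, overlapped between groups, with 39.7 and 48.1 CPM in shCon and 46.8 and 48.4 in shUBXN1. TOMM40L, a paralogue of the pore, was at 12.2 and 14.0 CPM in shCon and 9.98 and 9.74 in shUBXN1 (log2 fold change -0.41, adjusted p = 0.0187, edgeR), a call that did not hold in DESeq2 (adjusted p = 0.0795), under total count scaling (0.068), in limma on log2(TPM + 1) (0.0806) or without shCon replicate 2 (0.185).

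Of the small TIM chaperones, TIMM13, the partner of TIMM8A in a hexamer that guards hydrophobic precursors, had 1221 and 1178 counts in shCon and 499 and 562 in shUBXN1. Its CPM was 48.0 ± 3.07 in shCon and 22.1 ± 2.72 in shUBXN1 (SD, n = 2), a log2 fold change of -1.12 (SE 0.0994, adjusted p = 3.62e-07, edgeR). TMPRSS9, which shares 20.1% of the exon bases of TIMM13 on the opposite strand, had only 16 to 31 counts per library.

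TIMM8A was at 20.9 and 24.5 CPM in shCon and at 15.8 and 17.9 in shUBXN1 (log2 fold change -0.43), and its call was lost without shCon replicate 2 (-0.33, adjusted p = 0.0935, edgeR). TIMM8B went from 45.8 and 47.5 CPM to 35.7 and 35.2 (log2 fold change -0.39), with NKAPD1 overlapping 30.1% of its exon bases on the other strand. The second hexamer is built from TIMM9 and TIMM10. TIMM10 fell from 40.5 and 41.9 CPM to 30.5 and 28.7 (log2 fold change -0.48, SE 0.0849), whereas TIMM9 was at 18.0 and 17.2 CPM in shCon and 16.9 and 16.2 in shUBXN1 (log2 fold change -0.09, SE 0.109, adjusted p = 0.509, edgeR). Genes on the opposite strand, among them KIAA0586, together share 26.6% of the exon bases of TIMM9. TIMM10B, which docks the small chaperones on the TIM22 complex, had 30.9 and 32.6 CPM in shCon and 19.5 and 25.3 in shUBXN1 (log2 fold change -0.50, SE 0.115). Without shUBXN1 replicate 1 the TIMM10B value was -0.33.

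In the TIM23 complex, TIMM21, a subunit that links TIM23 to TOM and to the assembling respiratory chain, had 711 and 588 counts in shCon and 273 and 268 in shUBXN1. Its CPM fell from 25.8 ± 1.16 to 11.2 ± 0.294 (SD, n = 2), a log2 fold change of -1.20 (SE 0.109, adjusted p = 4.44e-07, edgeR). No annotated gene shares exon bases with TIMM21 (chromosome 18, 74148523 to 74160531, plus strand) in GENCODE v44. TIMM23, the channel, fell from 55.2 and 64.5 CPM to 33.8 and 37.7 (log2 fold change -0.74, SE 0.0934). Its near-identical copy TIMM23B had 217 to 267 counts per library and a log2 fold change of -0.19 (adjusted p = 0.274, edgeR), and how reads were divided between the copies is uncertain. TIMM50, the receptor of the complex, fell from 82.2 and 85.4 CPM to 50.8 and 54.5 (log2 fold change -0.67, SE 0.0764).

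TIMM17A and TIMM17B, alternative partners of TIMM23 in the channel, were not called. TIMM17A had 83.0 and 85.9 CPM in shCon and 82.7 and 95.4 in shUBXN1 (log2 fold change 0.08, SE 0.0818), and TIMM17B had 41.3 and 46.4 in shCon and 39.4 and 39.6 in shUBXN1 (log2 fold change -0.15, SE 0.0853). PQBP1, on the opposite strand, shares 15.5% of the exon bases of TIMM17B and had 2086 to 2392 counts per library. TIMM17A was called higher without shUBXN1 replicate 1 (0.17, adjusted p = 0.0394, edgeR), and TIMM17B was called lower with the GC trend removed (-0.38, adjusted p = 0.00160). The channel and its partners thus gave unlike values. ROMO1, a small protein of the inner membrane linked to the TIM23 complex, had 36.3 and 44.3 CPM in shCon and 44.7 and 45.0 in shUBXN1 (log2 fold change 0.16, SE 0.0954, adjusted p = 0.180, edgeR).

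The import motor pulls precursors into the matrix. DNAJC19, a J protein of the motor, had 653 and 594 counts in shCon and 320 and 322 in shUBXN1, and its CPM fell from 24.9 ± 0.560 to 13.3 ± 0.582 (SD, n = 2), a log2 fold change of -0.90 (SE 0.106, adjusted p = 5.96e-06, edgeR). Its paralogue DNAJC15 was low, at 168 and 150 counts in shCon and 138 in both shUBXN1 libraries (log2 fold change -0.15, SE 0.179). TIMM44, which tethers the motor to the channel, overlapped between groups at 40.9 and 41.4 CPM in shCon and 41.1 and 39.1 in shUBXN1. PAM16, which restrains the J protein, went from 10.3 and 11.7 CPM to 7.31 and 7.90 (log2 fold change -0.53, adjusted p = 0.00770, edgeR). The PAM16 call was lost without shCon replicate 2 (-0.45, adjusted p = 0.0735, edgeR), and adding the counts of the read-through gene CORO7-PAM16 brought the value to -0.32 (adjusted p = 0.0211).

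The TIM22 genes overlapped between groups. TIMM22, the carrier channel, had 736 and 678 counts in shCon and 646 and 680 in shUBXN1 (log2 fold change -0.03, SE 0.0948), and TIMM29, its accessory subunit, had 184 and 211 in shCon and 193 and 196 in shUBXN1 (log2 fold change 0.03, SE 0.170). Likewise, CHCHD4, the oxidoreductase of the MIA pathway, had 873 and 822 counts in shCon and 864 and 790 in shUBXN1, and GFER, which reoxidises CHCHD4, had 25.9 and 26.9 CPM in shCon and 22.9 and 26.8 in shUBXN1. Their log2 fold changes were 0.02 (SE 0.0860) and -0.09 (SE 0.102), and a noncoding gene, ENSG00000261790, with 22 to 53 counts per library, shares 41.5% of the exon bases of GFER on the opposite strand.

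In the SAM complex, MTX1 (metaxin 1, on the cytosolic face of the complex) was the only member called higher. It had 2728 and 2484 counts in shCon and 2996 and 3144 in shUBXN1, or 104 ± 2.42 and 128 ± 9.36 CPM (SD, n = 2), a log2 fold change of 0.30 (SE 0.0767, adjusted p = 0.00450, edgeR). The groups did not overlap. Genes on the opposite strand share 21.9% of the exon bases of MTX1, among them THBS3, which had 616 and 499 counts in shCon and 2272 and 1680 in shUBXN1 (log2 fold change 1.88), and reads of the pair cannot be told apart if strand was not used in counting. The MTX1 value was -0.06 after the trend on GC content was removed, 0.20 (adjusted p = 0.0561, edgeR) after a trend on length was removed, and 0.30 (adjusted p = 0.0784) without shCon replicate 2. SAMM50, the barrel that inserts other barrels, had 45.9 and 44.2 CPM in shCon and 48.2 and 49.8 in shUBXN1 (log2 fold change 0.12, adjusted p = 0.204, edgeR). SAMM50 passed the test under total count scaling and in limma on log2(TPM + 1). PNPLA3, on the same strand, shares 2.3% of the exon bases of SAMM50. PNPLA3 had 517 and 419 counts in shCon and 858 and 714 in shUBXN1, and the part of this overlap in the SAMM50 value was not tested. MTX2 overlapped between groups, with 30.9 and 33.5 CPM in shCon and 28.3 and 33.1 in shUBXN1.

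The matrix processing peptidase removes presequences, and both its subunits were lower. PMPCA, the subunit that recognises the presequence, fell from 90.7 and 102 CPM to 65.6 and 72.8 (log2 fold change -0.47, SE 0.0832). PMPCB, the catalytic subunit, fell from 131 and 130 CPM to 85.0 and 95.9 (log2 fold change -0.53, SE 0.0781). DNAJC2, on the opposite strand, shares 8.3% of the exon bases of PMPCB. It went from 3926 and 3586 counts in shCon to 2078 and 2119 in shUBXN1 (log2 fold change -0.78). Genes on the strand of PMPCB, among them PSMC2, together share 7.7%. The part of these overlaps in the PMPCB value was not tested. MIPEP, which takes a further octapeptide from some precursors, overlapped between groups at 203 and 206 counts in shCon and 212 and 228 in shUBXN1 (log2 fold change 0.16, SE 0.156).

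Levels of different genes were compared as TPM, which divides counts by the deposited gene length. For 59477 of 61541 genes that length equalled the length of an annotated transcript. It was 789 bases for TOMM5 and 366 for ROMO1, whose annotated exons together cover 3606 and 702 bases. In CPM, which is not divided by length, TOMM5 at 148 in shCon lay below TOMM20 (255), TOMM40 (216) and TOMM70 (161). The order and shares in TPM thus rest on these lengths, and other lengths were not tested. In shCon the order was led by TOMM5 at 375 ± 19.3, TOMM6 at 265 ± 14.5, TOMM40 at 253 ± 8.03 and ROMO1 at 221 ± 26.3 TPM (SD, n = 2), with TOMM6 and TOMM40 not separated by their spread. The lowest were TOMM40L at 9.40, MIPEP at 6.89 and DNAJC15 at 1.71 TPM. In shUBXN1 ROMO1 led at 256 ± 12.1, followed by TOMM6 at 217 ± 10.6 and TOMM7 at 193 ± 5.56 TPM, and TOMM5 was the 6th at 153 ± 3.84 TPM. For TOMM5 and TOMM6 these ranks may depend on how reads were divided with the read-through genes described above, which was not tested. NFS1, on the opposite strand, shares 12.0% of the exon bases of ROMO1 and had 1368 to 1920 counts per library.

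**Figure D3:**
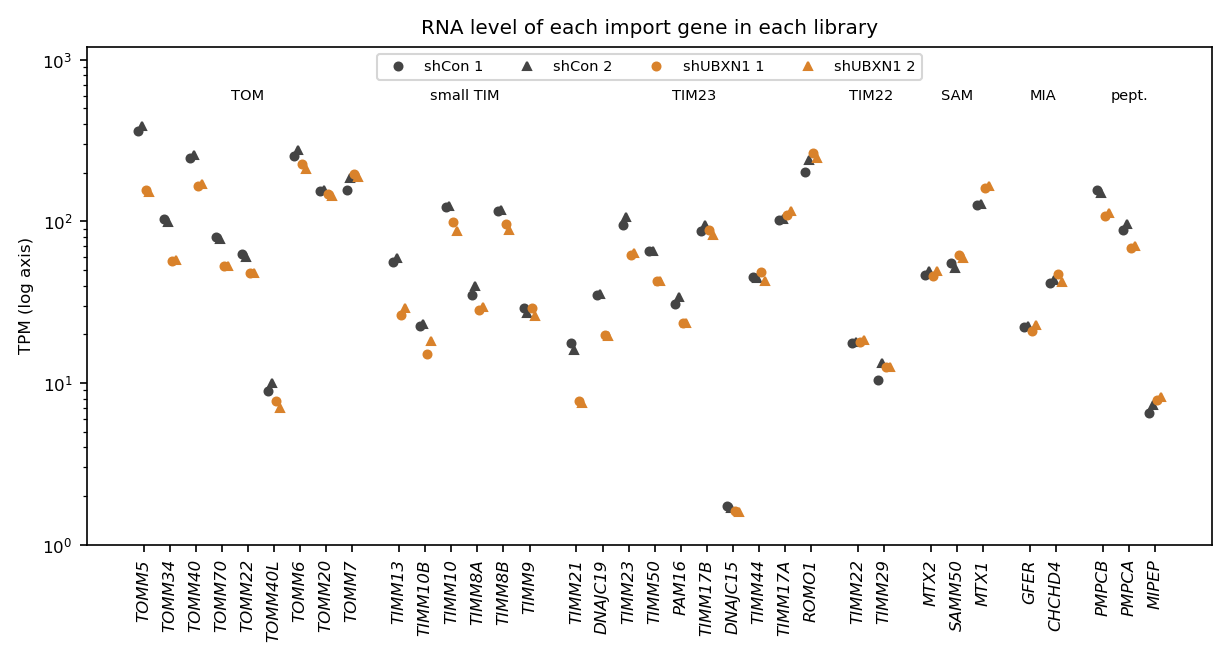
TPM (log y axis) of each of the 35 import genes (x axis, by complex) in each library, with shCon in grey and shUBXN1 in orange and the replicate number given by the symbol. The levels run from 1.59 TPM for DNAJC15 to 389 TPM for TOMM5, and within a gene the libraries of a group lie close together compared with the range between genes.

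The TPM of the 35 genes summed to 3066 and 3221 in shCon and to 2568 and 2517 in shUBXN1. TOM genes made up 46.7% and 46.9% of that sum in shCon and 41.1% and 40.9% in shUBXN1, and TOMM5 alone went from 11.8% and 12.1% to 6.08% and 5.98%. Most of the change in the TOM share thus lay in TOMM5, and how its reads were divided with overlapping genes was not tested. With TOMM5 left out of the sum the TOM share was 39.5% and 39.6% in shCon and 37.3% and 37.2% in shUBXN1. The SAM genes went from 7.48% and 7.10% to 10.4% and 10.9%, and the mean share of the TIM23 genes from 22.6% to 25.9%. The TIM23 difference of 3.3 percentage points was 1.8 with TOMM5 left out and 1.0 as a share of CPM. None of these shares overlapped between groups, but with 2 libraries against 2 an exact permutation test cannot go below p = 0.333. As a sum of TPM, TIM23 transcripts were at 682 and 741 in shCon and 667 and 648 in shUBXN1, so the larger share of TIM23 went with a smaller total. The SAM sum was 229 in both shCon libraries and 268 and 274 in shUBXN1.

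**Figure D4:**
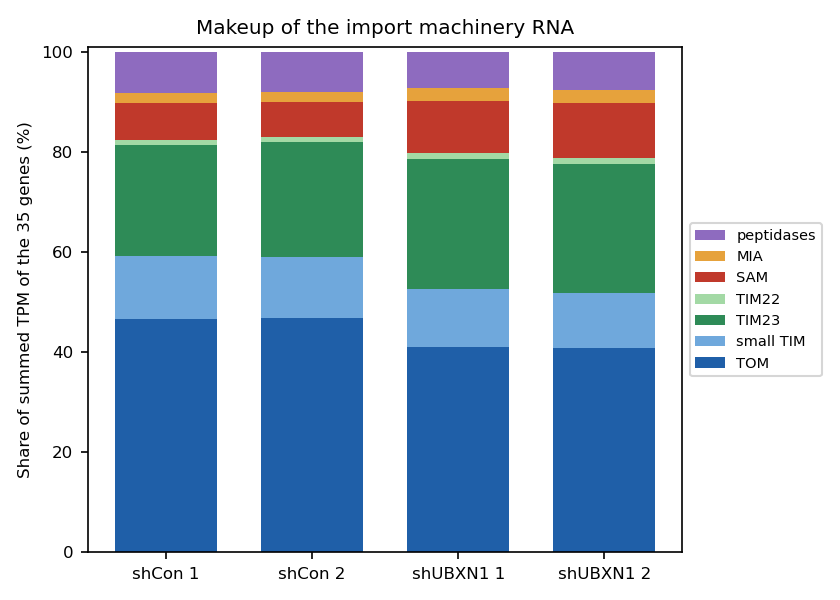
Share of the summed TPM of the 35 genes (y axis, percent) taken by each complex in each of the 4 libraries (x axis), as stacked bars. The TOM share is 46.7% and 46.9% in shCon and 41.1% and 40.9% in shUBXN1, a change that is mostly TOMM5 (39.5% and 39.6% against 37.3% and 37.2% without that gene), and the SAM share is 7.48% and 7.10% in shCon and 10.4% and 10.9% in shUBXN1.

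Pairs of related members were compared as the log2 ratio of their TPM in each library, with a two-sided exact permutation test that cannot go below p = 0.333 and adjustment over 7 pairs. DNAJC15 to DNAJC19 stood at -4.36 and -4.38 in shCon and -3.61 and -3.62 in shUBXN1, a difference of 0.75 on the log2 scale (exact p = 0.333, adjusted p = 0.583). MTX1 to MTX2 differed by 0.37 (1.44 and 1.37 in shCon, 1.81 and 1.74 in shUBXN1), TIMM17A to TIMM17B by 0.22 and TOMM40 to TOMM40L by -0.24, each without overlap and each at exact p = 0.333 (adjusted p = 0.583). For TIMM8A to TIMM8B (-0.04), TIMM10 to TIMM10B (0.04) and PMPCA to PMPCB (0.06) the libraries overlapped. Of these pairs the J proteins had the largest difference relative to the spread within groups, with SDs of 0.019 in shCon and 0.00636 in shUBXN1. TIMM17A to TIMM23, a pair chosen after its values were seen, stood at 0.12 and -0.06 in shCon and 0.82 and 0.87 in shUBXN1, a difference of 0.81.

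**Figure D5:**
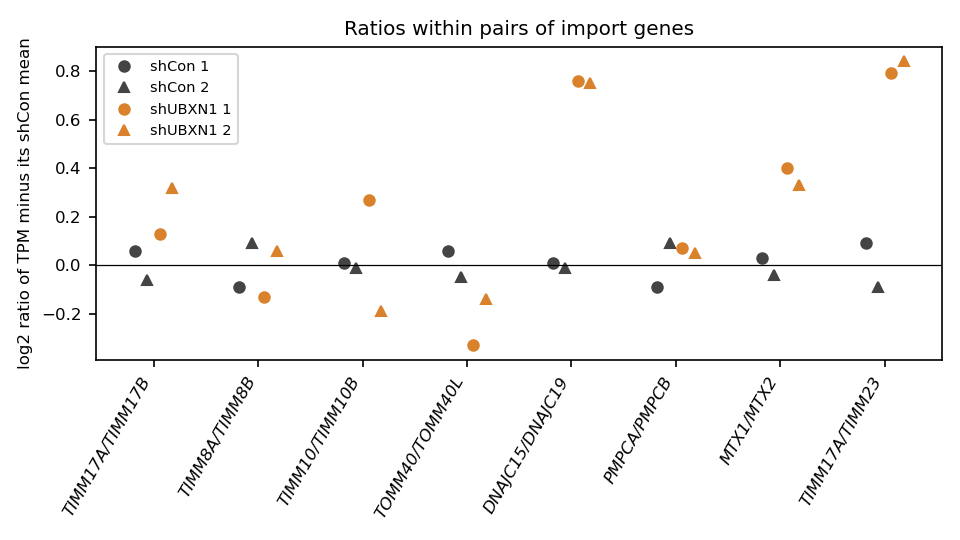
Log2 ratio of TPM within pairs of import genes (x axis), minus its mean over the shCon libraries (y axis), with shCon in grey and shUBXN1 in orange and 1 symbol per library. The shUBXN1 points of DNAJC15/DNAJC19 and TIMM17A/TIMM23 lie about 0.75 and 0.81 above the shCon mean, and those of TIMM8A/TIMM8B and PMPCA/PMPCB overlap the shCon points.

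Of 28 other genes that act with the machinery, 27 could be tested, and 14 were lower (51.9%) and 1 higher, against 28.2% and 28.0% of all genes tested, with a median log2 fold change of -0.34. Among protein-coding genes in the members' range of expression, which some of these genes lay outside, 36.8% were lower and 29.0% higher. All 4 cytosolic chaperones that deliver precursors were lower. HSPA8, the constitutive Hsp70, fell from 3061 and 3138 CPM to 1459 and 1655 (log2 fold change -0.99, SE 0.0948, adjusted p = 7.43e-07, edgeR), and HSP90AB1 from 1611 and 1666 CPM to 913 and 1061 (log2 fold change -0.73, SE 0.0925). The matrix motor chaperone HSPA9 and its exchange factors GRPEL1 and GRPEL2 were called lower too (log2 fold changes -0.35, -0.44 and -0.31), as was AGK, a subunit of TIM22 (-0.40). In the cristae-organising MICOS complex, APOO was lower at 10.1 and 11.8 CPM in shCon and 6.18 and 6.24 in shUBXN1 (log2 fold change -0.82, SE 0.157) and CHCHD3 was also called lower (-0.22, adjusted p = 0.0431, edgeR), whereas APOOL, MICOS10, MICOS13, CHCHD6 and IMMT were not called. OXA1L, the inner membrane insertase, was the only partner called higher, from 94.9 and 94.2 CPM to 110 and 114 (log2 fold change 0.24, adjusted p = 0.00945, edgeR), and that call was lost on removal of the GC or length trend (0.14 each) and without either shCon replicate. AIFM1, which holds CHCHD4 at the inner membrane, had a log2 fold change of 0.17 (adjusted p = 0.0884, edgeR).

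Of 15 imported proteins and landmarks of the pathways, 5 were lower (33.3%) and 3 higher, near the background of 28.2% and 28.0% of all genes tested, with a median log2 fold change of -0.11. The shares among protein-coding genes in the members' range were 36.8% lower and 29.0% higher. PINK1, the kinase that is held on TOM when import fails, rose from 33.0 CPM in both shCon libraries to 84.6 and 91.4 in shUBXN1 (log2 fold change 1.41, SE 0.0791, adjusted p = 4.13e-09, edgeR). PINK1-AS, on the opposite strand, shares 39.5% of the exon bases of PINK1. Reads of the pair cannot be told apart if strand was not used in counting. The carriers SLC25A5 and SLC25A6, which exchange ADP and ATP across the inner membrane, fell by 0.66 and 0.58 on the log2 scale, from 734 and 748 to 445 and 491 CPM and from 272 and 280 to 176 and 194 CPM. SLC25A12, the aspartate and glutamate carrier, rose from 18.3 and 18.9 to 23.6 and 22.2 CPM (log2 fold change 0.30, adjusted p = 0.0200, edgeR), a call lost in DESeq2 (adjusted p = 0.0889), in limma on log2(TPM + 1) (0.0504), on removal of the length trend (0.105) and without either shCon replicate or shUBXN1 replicate 1. The barrel proteins VDAC1, VDAC2 and VDAC3 were not called, with log2 fold changes of -0.11, -0.15 and 0.14.

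PHB1 and PHB2 form a ring in the inner membrane in equal parts. PHB2 fell from 184 and 197 to 114 and 112 CPM (log2 fold change -0.75, SE 0.0739), while PHB1 rose from 190 and 196 to 234 and 254 CPM (log2 fold change 0.34, SE 0.0752, adjusted p = 0.00149, edgeR). The study itself measured both mRNAs by qRT-PCR, in cells including MHCC97H, and reported that UBXN1 knockdown changed them little. The reason for this difference was not tested. A gene on the opposite strand, ENSG00000250186, shares 18.8% of the exon bases of PHB1. The PHB1 call was lost when the trend on GC content was removed (0.20, adjusted p = 0.0627, edgeR) and without shCon replicate 2 (0.35, adjusted p = 0.0610). The log2 ratio of PHB1 to PHB2 in TPM, a pair added after its values were seen, was -0.36 and -0.42 in shCon and 0.62 and 0.76 in shUBXN1, a difference of 1.09.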

How the data were processed

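RNA of 2 shCon and 2 shUBXN1 libraries of MHCC97H cells was analysed from expected counts per gene, which the authors deposited without normalization together with a gene length. The submitters' processing notes name HISAT2 2.0.4, StringTie 1.3.0 and GRCh37, whereas the methods of the study name GRCh38. Whether strand was used in counting is not given in the sources used here, so overlapping genes, antisense genes and near-identical copies are uncertain. Of the values above 0, 62.4% to 64.6% per library were whole numbers, and how the fractional counts arose is not given in the sources used here.

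Rounded counts of the genes that passed filterByExpr were scaled by TMM and compared by the quasi-likelihood test of edgeR 4.0.16 in R 4.3.3 (glmQLFit and glmQLFTest, no block), with Benjamini-Hochberg adjustment over 16863 genes. The SE was the log2 fold change over the square root of F, and the biological coefficient of variation was 0.0711. CPM used TMM, and TPM was computed from the deposited counts and lengths. Symbols, exon overlap and coordinates came from GENCODE v44 on GRCh38, in which 61369 of 61541 identifiers (99.7%) were found. On simulated counts for this comparison (16863 genes), 158 of 200 changed genes (79%), pooled over several sizes of change, were recovered with 15 false calls. Far fewer genes were changed in the simulation than the 56.2% called in these data, so this recovery need not hold for the members.

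Replicate libraries differed by more than sampling noise (chi-square per degree of freedom 3.83 in shCon and 10.4 in shUBXN1). Depth limits genes of low counts, and 2 libraries per group limit how well their spread is known. The members and lists were chosen with earlier results of these data known. All members could be named, and values per library were required for the 5 largest rises and falls among called members, for the fixed pairs, for the 3 largest rises and falls among called partners and landmarks, and for PHB1 and PHB2. Alternatives were DESeq2 1.42.0, total count scaling, limma 3.58.1 (voom, and on log2(TPM + 1)), other filters, a replicate block, unrounded values, removal of GC and length trends, added pseudogene counts and leaving out each library. The removal of a GC or length trend also removed each library's mean deviation over the tested genes, so it moved the baseline as well. Adding read-through counts, the protein-coding background, 2 pairs and leaving TOMM5 out of the shares were chosen after the data were seen. A marker gene is not reported here.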

Additional observations from a re-analysis of the deposited data

How the results depend on the processing

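Across 16 alternative settings the median log2 fold change of the members ranged from -0.44 to -0.31. In the settings that kept all 4 libraries, 18 to 22 members were called lower. Calls over all genes moved with the setting too. In the main fit 4751 of 16863 genes were lower (19 members), and under total count scaling 3969 of 16863 (18 members). With the GC trend removed 5423 of 16830 genes were lower (22 members), and with the length trend removed 5664 of 16863 (20 members). Of the 20 called members, 15 kept their call under each setting that was run, and MTX1, PAM16, TIMM8A, TOMM40L and TOMM6 did not. Of 899 combinations of a result and a setting, 796 kept their direction and their side of the threshold. The cause of the other changes was not tested. With 2 libraries per group the spread is poorly known, and fits that left out a library assumed that the lone sample of a group varied like the other group.

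With the replicate number as a block, 19 members were lower and 1 higher with a median of -0.39, and no member's call changed. Over all 16863 genes tested, 5023 were then lower and 5000 higher. The labels do not say that a number marks a shared batch, and deviations of libraries with the same number correlated at 0.0775.

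The number of members called higher was 2 under total count scaling and in limma on log2(TPM + 1), where SAMM50 was added. It was 0 after removal of the GC or length trend. Over all genes, 5324 of 16863 were higher under total count scaling and 4742 of 16863 in that limma fit. With the GC trend removed 3951 of 16830 were higher, and with the length trend removed 3949 of 16863, against 4727 of 16863 in the main fit. Under total count scaling, which moved the median of all genes from 0.016 to 0.101, the medians were -0.31 (members), -0.33 (TOM), -0.37 (small TIM), -0.25 (TIM23), 0.21 (SAM) and 0.05 (MIA), and TIMM44 (0.05), TIMM22 (0.05) and MTX2 (0.01) changed sign. In limma on log2(TPM + 1) they were -0.31 (members), -0.35 (TOM), -0.39 (small TIM), -0.27 (TIM23) and 0.02 (MIA), with TIMM44 and TIMM22 at 0.02 each. With the GC trend removed, the medians were -0.55 (TOM), -0.57 (TIM23), -0.19 (TIM22), -0.05 (SAM) and -0.22 (MIA), TIMM17B, TIMM44 and GFER were also called lower, and MTX1 (-0.06), ROMO1 (-0.05), TIMM29 (-0.25) and CHCHD4 (-0.03) changed sign. With the length trend removed, the medians were -0.54 (TOM), -0.41 (TIM23), -0.09 (TIM22), 0.02 (SAM), -0.14 (MIA) and -0.59 (peptidases). TIMM17A (-0.02), TIMM29 (-0.05) and CHCHD4 (-0.08) then changed sign. Removing either trend also took out each library's mean deviation over the tested genes, which shifts the baseline. The part of that shift in these values, calls and sign changes was not tested. Read-through counts, added after the data were seen, gave medians of -0.32 (members) and -0.23 (TIM23).

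Leaving out each library in turn gave medians of -0.42 to -0.32 (members), -0.51 to -0.43 (TOM), -0.52 to -0.38 (small TIM) and -0.42 to -0.30 (TIM23). They were -0.11 to 0.10 (TIM22), 0.08 to 0.15 (SAM), -0.10 to 0.01 (MIA) and -0.56 to -0.40 (peptidases). The sign was not stable for TOMM7 (-0.02 to 0.25), TIMM17A (-0.05 to 0.17), TIMM22 (-0.13 to 0.04), TIMM29 (-0.15 to 0.21, with -0.04 in between), MTX2 (-0.20 to 0.04), CHCHD4 (-0.03 to 0.05, with -0.01 in between) and GFER (-0.22 to 0.02). Calls were gained without shUBXN1 replicate 1 (TIMM17A, 0.17) and without shUBXN1 replicate 2 (TOMM20, -0.20). As shares of summed CPM in place of TPM, the differences in percentage points were -4.50 (TOM), 1.0 (TIM23), 0.47 (TIM22), 4.01 (SAM) and 0.76 (MIA), against -5.80, 3.3, 0.259, 3.41 and 0.56 in TPM. With TOMM5 left out of the sum, chosen after the data were seen, they were -2.3 (TOM), -2.0 (small TIM), 1.8 (TIM23), 0.21 (TIM22), 3.02 (SAM), 0.45 (MIA) and -1.26 (peptidases).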
